A study of Rattus norvegicus with 6 samples.

Results

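The 5 genes Scn4b, Atp1b1, Fxyd1, Slc4a3 and Hcn2, which act in ion transport, were described in rat myocardium. They were chosen by name, as the rows of the deposited gene table that carry these symbols, and each symbol had 1 row, so the 5 genes stood for 5 of 28293 genes. RNA of whole myocardial tissue was sequenced from 3 sham and 3 ischemia-reperfusion (I/R) samples, numbered 1 to 3 in each group by the labels. Values were deposited as FPKM, which are fragments counted per kilobase of a gene and scaled to the library total. All rats were male and wild type, with no allele or transgene named, and by the study's methods the sham and reperfusion groups both received PBS into the caudal vein. I/R rats had the left anterior descending coronary artery tied off for 30 min and then reperfused for 6 h before the heart was taken, and the titles of the sham samples carry the same times. The strain, the age and the part of the ventricle taken are not given in the labels. The labels do not state that each sample is a separate animal, so the p-values measure the spread between these samples. The comparison asks how the transcripts differed between reperfused and sham-operated hearts.

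A heart muscle cell fires when voltage-gated sodium channels open, and the sodium that enters is pumped out again by the Na+/K+-ATPase, which trades it for potassium. Each pump has a catalytic alpha subunit, a beta subunit that carries it to the membrane, and often a small FXYD protein that tunes it. Intracellular pH is held by sodium-proton exchangers, sodium-bicarbonate cotransporters and chloride-bicarbonate exchangers, and these meet the sodium balance because acid extrusion brings sodium in. None of the 5 genes encodes a pore of a voltage-gated sodium channel or a sodium-proton exchanger. Scn4b encodes the sodium channel beta-4 subunit, Atp1b1 the beta-1 subunit of the pump, and Fxyd1 phospholemman, the pump's inhibitor in heart muscle whose phosphorylation releases the pump. Slc4a3 encodes the anion exchanger AE3, which trades chloride for bicarbonate, and Hcn2 a channel opened by hyperpolarization that carries a mixed sodium and potassium current.

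All 5 genes were higher in I/R than in sham hearts. In each of them the lowest I/R value lay above the highest sham value, which was also true of 37.2% of the 10942 genes tested, those averaging 0.5 FPKM or more. By limma with Benjamini-Hochberg adjustment 5 of 5 passed an adjusted p of 0.05 upward, against 25.5% of all genes tested, and 0 of 5 passed downward, also by unadjusted p, against 7.36% of all genes. The 5 genes were chosen with earlier results of these data known, so these counts are not an independent comparison with all genes. The two-sided exact permutation p was 0.1 for each gene, the smallest that 3 against 3 samples allow. The changes were unlike in size. The log2 fold change on the log2(FPKM + 0.1) scale was 2.93 for Hcn2, 2.57 for Scn4b, 2.21 for Atp1b1, 2.20 for Fxyd1 and 0.86 for Slc4a3, where the median of all genes tested was 0.29. Over all genes 2790 were called higher and 805 lower, and 772 and 2831 when the libraries were rescaled without mitochondrial mRNAs, so the higher calls depend on the scaling. A larger fold change was found in 0.658% of the genes tested for Hcn2 and in 24.5% for Slc4a3. In bulk tissue, fewer cells of a type and less RNA per cell cannot be told apart.

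**Figure D1:**
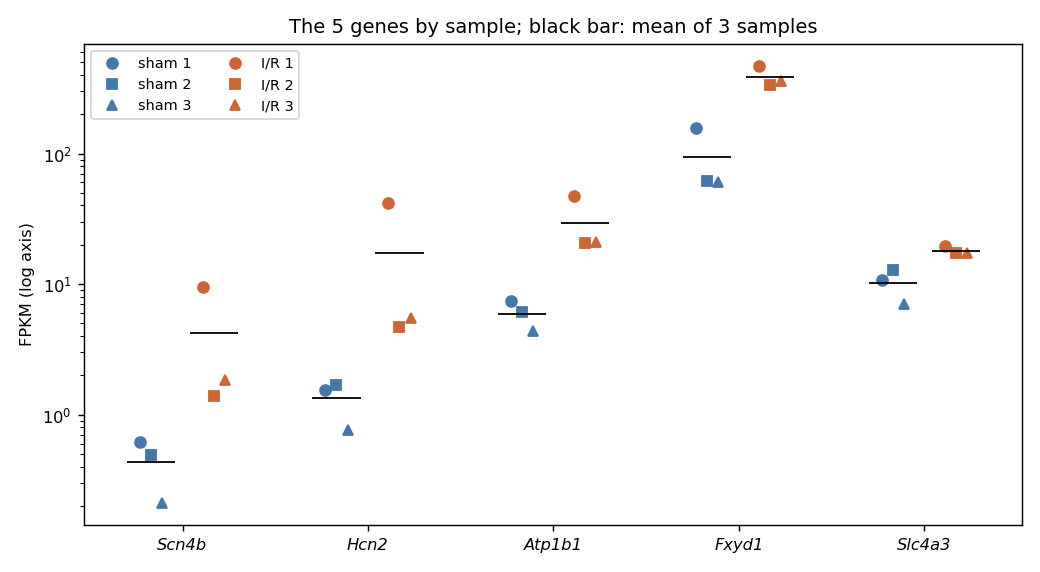
FPKM of the 5 genes on a log axis, with 1 point per sample (blue, sham; orange, I/R; circle, square and triangle for replicates 1, 2 and 3) and a black bar at the mean of 3. In every gene the 3 I/R points lie above the 3 sham points, and I/R replicate 1 lies far above the other I/R samples in Scn4b (9.43 FPKM) and Hcn2 (41.6 FPKM).

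The libraries differed in ways that touch these results. The share of FPKM taken by the 13 mitochondrially encoded mRNAs was 80.1% to 86.2% in sham and 61.8% to 71.5% in I/R. The summed FPKM of 8 cardiomyocyte markers was 3848 to 12830 in sham and 23594 to 30803 in I/R. Of the 8, 7 were called higher (25.5% of all genes tested were), with a median log2 fold change of 2.17. I/R replicate 1 stood apart, with the lowest mitochondrial share (61.8%). The part of these differences in the results below was not tested, and values with other scalings, set against the markers and without that library are given with each gene.

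Scn4b, whose product modulates sodium channel gating and is linked to resurgent sodium current, was the least abundant of the 5 genes. Its FPKM was 0.614, 0.489 and 0.211 in sham replicates 1 to 3 and 9.43, 1.38 and 1.83 in I/R replicates 1 to 3. The groups did not overlap, and I/R replicate 1 was 5.88 times the mean of the other I/R samples. These values rested on few fragments. The smallest whole read numbers that give the deposited values were 149, 140 and 58 in sham and 1996, 313 and 391 in I/R. The 58 reads of sham replicate 3 carry an exact Poisson interval of 44.0 to 75.0, which covers counting error only. The means were 0.438 ± 0.207 FPKM in sham and 4.21 ± 4.52 FPKM in I/R (SD, n = 3), a ratio of 9.62. The ratio of the medians was 3.74, and without I/R replicate 1 the ratio of the means was 3.66. The log2 fold change was 2.57 (SE 0.63, limma adjusted p = 0.0137) and was 1.74 without I/R replicate 1 (adjusted p = 0.0235). Without the filter on low values the call was lost (limma adjusted p = 0.0563).

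Scn4b was set against the other sodium channel genes. Scn4b made up 4.39%, 6.52% and 4.12% of the summed FPKM of the 4 beta subunits in sham and 8.93%, 3.66% and 4.64% in I/R. These shares overlapped, with means of 5.01% ± 1.32 and 5.74% ± 2.80 (SD, n = 3; two-sided exact permutation p = 0.8, the same after Benjamini-Hochberg adjustment over 5 genes), so a change of Scn4b within its family was not detectable. Leaving out I/R replicate 1 turned the difference in share from 0.73 to -0.86 percentage points.

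Among the alpha subunit genes, Scn7a, which encodes the sodium-sensing channel Nax, had a log2 fold change of -0.68 and did not pass (limma adjusted p = 0.0770), but passed after rescaling without mitochondrial mRNAs (adjusted p = 0.0084). Of 10 genes for proteins that bind or regulate the cardiac channel, 8 were tested. Of these, 6 were called higher, among them Fgf12, Fgf13, Rangrf, Cav3 and Nedd4l, where 25.5% of all genes tested were. Rescaled without mitochondrial mRNAs, 5 were called higher, where 772 of all 10942 genes tested were. The log2 fold changes of the named genes ran from 0.75 for Nedd4l, a ubiquitin ligase of the channel, to 2.29 for Cav3, the muscle caveolin. Nedd4l sat at the threshold (limma adjusted p = 0.04999) and was not called with the replicate number as a block (adjusted p = 0.0548), while Gpd1l, which affects trafficking of the channel, was called with the block alone (adjusted p = 0.0939 and 0.0465).

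Hcn2 had the largest fitted fold change of the 5 genes and the widest spread, a rank that rested on I/R replicate 1. Its FPKM was 1.55, 1.70 and 0.760 in sham and 41.6, 4.72 and 5.49 in I/R replicates 1 to 3. The groups did not overlap, and I/R replicate 1 was 8.16 times the mean of the other I/R samples. On the log2 scale that excess was 3.003, and 0.0914% of the genes tested had an excess as large or larger. For Scn4b the same excess was 2.48 and 0.183% of the genes reached it, where the median of all genes tested was 0.23. The means of Hcn2 were 1.34 ± 0.505 FPKM in sham and 17.3 ± 21.1 FPKM in I/R (SD, n = 3). Their ratio of 12.9 became 3.53 between the medians and 3.82 without I/R replicate 1. The log2 fold change was 2.93 (SE 0.70, limma adjusted p = 0.0128) and was 1.92 without that library (adjusted p = 0.0108), below the 2.05 of Fxyd1. As for Scn4b, the call was lost without the filter on low values (limma adjusted p = 0.0542).

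Among the 4 HCN genes, Hcn2 was the one that passed the filter. Hcn3 was at most 0.0302 FPKM and Hcn4, the main pacemaker isoform of the sinus node, was at most 0.0668 FPKM. The share of Hcn2 in the summed FPKM of the family was 95.9%, 98.7% and 93.2% in sham and 99.9%, 99.9% and 98.8% in I/R. The means were 95.9% ± 2.73 and 99.6% ± 0.628 (SD, n = 3). The groups did not overlap, by a narrow margin between sham replicate 2 and I/R replicate 3 (two-sided exact permutation p = 0.1, 0.125 after Benjamini-Hochberg adjustment over 5 genes). Since Hcn2 made up nearly all of this sum in both groups, its share carries little of the change in its level. Of the 6 atrial markers searched for, 5 were tested, and their summed FPKM was 6.999 to 10.8 in sham and 10.2 to 143.8 in I/R. The highest I/R sum came from Myl7, the atrial myosin light chain, at 133.2 FPKM in I/R replicate 3 against 0.905 to 3.57 in the other libraries. With the replicate number as a block Myl7 was called higher (limma adjusted p = 0.0268), without it not (adjusted p = 0.0804).

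The profiles of Scn4b and Hcn2 over the 6 samples were alike. Each gene was compared with 9111 tested genes of mean FPKM of at least 1 by the root mean square difference between profiles of log2(FPKM + 0.1), each centred on its own mean. The gene closest to Hcn2 was Scn4b, at 0.28 log2 units, followed by Sctr, the secretin receptor, at 0.44 and Eef1a2, a translation elongation factor of muscle and nerve, at 0.51. The genes closest to Scn4b were Sctr at 0.27, Hcn2 at 0.28 and AABR07051450.1 at 0.31. Sctr itself had 2.41, 1.86 and 0.616 FPKM in sham and 24.0, 3.84 and 3.91 FPKM in I/R, with I/R replicate 1 far above the rest as in both channel genes. The likeness was taken over 6 samples that share their libraries and was not tested.

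**Figure D2:**
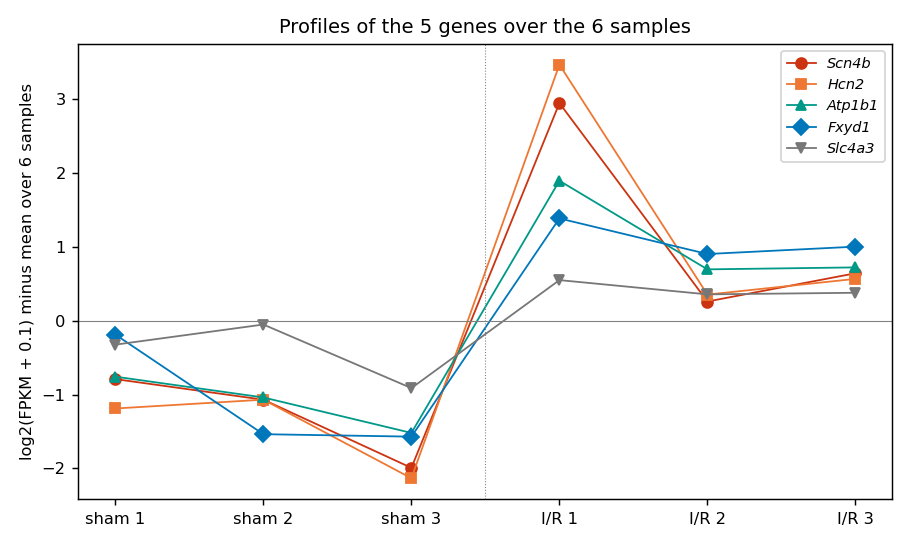
Profiles of the 5 genes over the 6 samples, as log2(FPKM + 0.1) minus the gene's mean, with 1 line per gene and a dotted line between sham and I/R. Scn4b and Hcn2 run 0.28 log2 units apart and peak at I/R replicate 1, while Slc4a3 is the flattest line.

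The 250 bases upstream of the RefSeq start (assembly GRCr8) are shown for these genes with matched profiles, and for Slc4a3, the gene with the smallest change, as a contrast. Windows were found for 4 of the 5 genes. Capitals mark the GC box, GGGCGG on either strand, and the E-box, CANNTG, and the motifs were allowed to overlap. Each sequence is printed from 5′ to 3′ on the strand of its gene. The Scn4b window lies at chr8:54343623-54343872 on the plus strand, the Hcn2 window at chr7:10639458-10639707 on the minus strand and the Slc4a3 window at chr9:84485405-84485654 on the plus strand. The Slc4a3 window belongs to a transcript that starts 906 bases from the outermost start of the gene.
Scn4b: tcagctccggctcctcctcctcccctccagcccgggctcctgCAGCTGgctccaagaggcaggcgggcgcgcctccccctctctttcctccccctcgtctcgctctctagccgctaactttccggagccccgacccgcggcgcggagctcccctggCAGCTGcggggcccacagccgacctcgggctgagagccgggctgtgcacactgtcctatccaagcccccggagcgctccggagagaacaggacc
Hcn2: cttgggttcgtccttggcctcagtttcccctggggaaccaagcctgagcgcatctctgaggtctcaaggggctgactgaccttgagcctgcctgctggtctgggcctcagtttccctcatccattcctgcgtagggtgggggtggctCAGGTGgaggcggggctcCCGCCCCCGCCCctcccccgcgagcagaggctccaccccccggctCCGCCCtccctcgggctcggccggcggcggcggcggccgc
Slc4a3: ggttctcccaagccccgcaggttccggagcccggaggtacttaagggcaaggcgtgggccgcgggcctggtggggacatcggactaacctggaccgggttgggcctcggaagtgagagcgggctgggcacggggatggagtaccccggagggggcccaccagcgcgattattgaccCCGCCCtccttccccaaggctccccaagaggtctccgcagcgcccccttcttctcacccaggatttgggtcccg

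The Scn4b and Hcn2 windows had the same GC content, 71.6%, a value that 6.75% of 27457 rat promoter windows reached, and the Slc4a3 window had 68.4% (10.9% reached it). The median over all windows was 52%. There were 21 CpG dinucleotides in the Scn4b window, 18 in that of Hcn2 and 18 in that of Slc4a3, against a median of 6. The motifs differed between the genes with matched profiles. Scn4b held 2 E-boxes and no GC box, Hcn2 held 3 GC boxes and 1 E-box, and Slc4a3 held 1 GC box and no E-box. The Hcn2 window also held 1 M-CAT element, CATTCC, which was in 11.8% of all windows. A GC box was in 32.4% of all windows and an E-box in 65.2%. The TATA box (TATAAA, 13.1% of all windows), GATA element (26.7%, in 4 forms that begin with A or T, then GATA, then A or G), heat shock element (GAANNTTC, 7.02%) and cyclic AMP response core (TGACG, 19%) were not among the letters of these 3 windows. The Fxyd1 window, which held 1 GC box and 4 E-boxes at a GC content of 66.8%, had none of those 4 either.

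Atp1b1, the pump subunit that escorts the catalytic subunit to the cell surface, rose in all I/R samples. It had 7.42, 6.09 and 4.34 FPKM in sham and 47.2, 20.5 and 20.9 FPKM in I/R replicates 1 to 3. Every I/R value was at least 2.76 times the highest sham value, and I/R replicate 1 was 2.28 times the mean of the other I/R samples. The means were 5.95 ± 1.55 and 29.5 ± 15.3 FPKM (SD, n = 3), with a ratio of 4.96, and of 3.48 without I/R replicate 1. Its log2 fold change was 2.21 (SE 0.35, limma adjusted p = 0.0035) and 1.81 without that library (adjusted p = 0.0075). Of 2145 tested genes within 1 log2 unit of its mean level, 50 rose more.

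In these samples Atp1b1 made up a larger part of the pump beta subunit RNA in I/R than in sham. Atp1b1 made up 23.6%, 18.9% and 16.1% of the summed FPKM of the 4 beta genes in sham and 58.7%, 36.3% and 36.3% in I/R. The shares did not overlap, with means of 19.5% ± 3.80 and 43.8% ± 12.9 (SD, n = 3; two-sided exact permutation p = 0.1, 0.125 after Benjamini-Hochberg adjustment over 5 genes). A share within a sample does not move with the scaling of the library. Atp1b3, the beta-3 subunit found in many cell types and the most abundant of the family in sham, had 20.4 ± 1.73 FPKM in sham and 30.8 ± 2.32 in I/R (SD, n = 3; log2 fold change 0.59, SE 0.21). It missed the threshold (limma adjusted p = 0.0557) and passed it with the replicate number as a block (adjusted p = 0.0400). The sign depended on the scaling. The log2 fold change of Atp1b3 was -0.19 after rescaling without mitochondrial mRNAs (limma adjusted p = 0.60) and -0.28 after quantile normalization (adjusted p = 0.39). Atp1b2, the glial beta subunit, had 3.88 FPKM in sham and 4.42 in I/R (log2 fold change 0.23, limma adjusted p = 0.54).

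Fxyd1 was by far the most abundant of the 5 genes in both groups. Its FPKM was 157.6, 61.8 and 60.4 in sham and 469.3, 335.9 and 360.0 in I/R replicates 1 to 3. The I/R values lay close together, and the sham group was the uneven one, with sham replicate 1 at 2.61 times the lowest sham value. The means were 93.3 ± 55.7 and 388.4 ± 71.1 FPKM (SD, n = 3), a ratio of 4.16, and the medians had a ratio of 5.82. The log2 fold change was 2.20 (SE 0.37, limma adjusted p = 0.0042), and leaving out each library in turn gave 1.96 to 2.65, with the call kept each time. Of 193 tested genes within 1 log2 unit of its mean level, 17 rose more, and the median of the 193 was 0.99.

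Fxyd1 was the one FXYD gene that passed the test. Of 7 genes listed, 6 were found and 5 tested, with a median log2 fold change of 0.22. Fxyd5, dysadherin, which lowers cell adhesion and also binds the pump, had 13.7 ± 1.20 FPKM in sham and 14.3 ± 2.17 in I/R (SD, n = 3; log2 fold change 0.05, limma adjusted p = 0.88). Fxyd1 made up 84.9%, 66.5% and 69.8% of the family in sham and 94.4%, 90.9% and 91.4% in I/R. These shares did not overlap, with means of 73.8% ± 9.78 and 92.2% ± 1.88 (SD, n = 3; two-sided exact permutation p = 0.1, 0.125 after adjustment over 5 genes). The ratio of Fxyd1 to Atp1b1, the inhibitor to its partner subunit, did not separate the groups. It was 21.2, 10.2 and 13.9 in sham and 9.94, 16.4 and 17.2 in I/R, and its mean log2 differed by -0.03 (3.85 ± 0.53 against 3.82 ± 0.44, SD, n = 3; two-sided exact permutation p = 0.9).

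**Figure D3:**
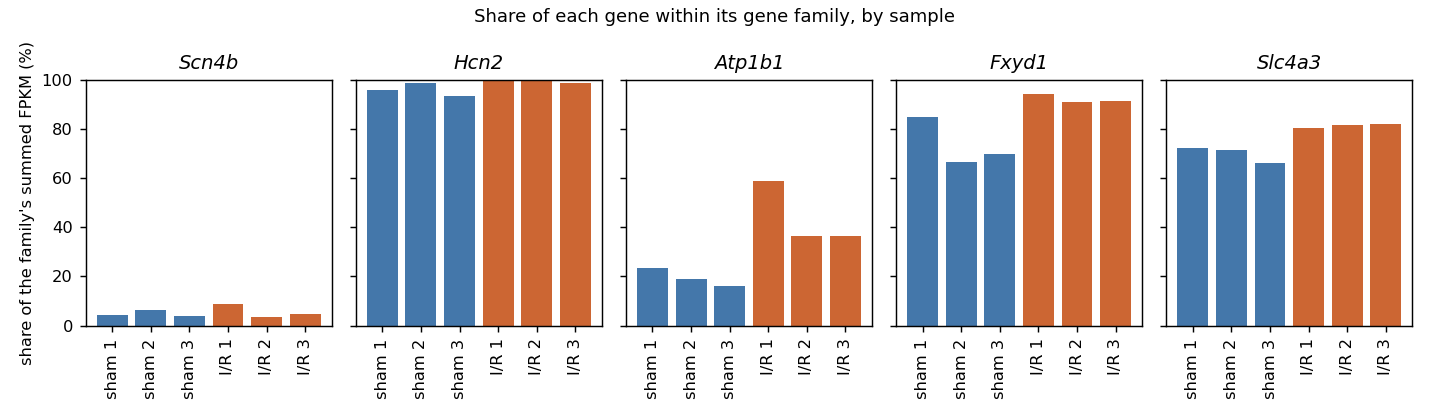
Share in percent of each gene in the summed FPKM of its gene family, with 1 bar per sample (blue, sham; orange, I/R) on an axis from 0 to 100. Atp1b1 goes from 16.1% to 23.6% in sham to 36.3% to 58.7% in I/R, Fxyd1 and Slc4a3 also separate, Hcn2 is near 100% throughout, and the bars of Scn4b overlap between the groups.

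Phospholemman is a target of protein kinase A and protein kinase C and is dephosphorylated by protein phosphatase 1. Of 10 genes listed for these enzymes 9 were tested and 4 were called higher, where 25.5% of all genes tested were. Their median log2 fold change was 0.87. Rescaled without mitochondrial mRNAs, 3 were called higher, where 772 of all 10942 genes tested were, and the median was 0.10. Prkaca, the catalytic subunit of protein kinase A, rose by 1.81 on the log2 scale (SE 0.34, limma adjusted p = 0.0054) and Prkar1a, its regulatory subunit, by 1.60 (SE 0.25, adjusted p = 0.0035). Ppp1r1a, inhibitor-1 of the phosphatase, rose by 2.12 (SE 0.51, limma adjusted p = 0.0132). That call was lost after quantile normalization (limma adjusted p = 0.0675) and without the filter on low values. Ppp1cb, a catalytic subunit of the phosphatase, had a log2 fold change of 0.75 (limma adjusted p = 0.0313) that became -0.03 when the libraries were rescaled without mitochondrial mRNAs. Ppp1ca, another catalytic subunit, was called with the replicate block alone (0.87, limma adjusted p = 0.0712 and 0.0315), which made 5 genes. RNA levels say nothing of the phosphorylation of the protein. The genes closest to Fxyd1 in profile were Cav3 and the mitochondrial import and respiratory genes Timm10 and Ndufb10, within 0.06 to 0.07 log2 units. Those closest to Atp1b1 were Atp5pb, Tmod1 and Coq9, which act in ATP synthesis, at the thin filament and in coenzyme Q synthesis, within 0.12 to 0.13.

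Slc4a3 changed least, and its call was the least stable. Its FPKM was 10.7, 12.9 and 7.07 in sham and 19.6, 17.2 and 17.4 in I/R replicates 1 to 3. The groups did not overlap, the lowest I/R value was 1.33 times the highest sham value, and I/R replicate 1 did not stand apart. The means were 10.2 ± 2.95 and 18.1 ± 1.36 FPKM (SD, n = 3), a ratio of 1.77. The log2 fold change was 0.86 (SE 0.26, limma adjusted p = 0.0312). Of 2036 tested genes within 1 log2 unit of its mean level, 793 rose more, and their median was 0.66. Slc4a3 was at a log2 fold change of 0.08 after rescaling without mitochondrial mRNAs (limma adjusted p = 0.83) and 0.17 after quantile normalization (adjusted p = 0.60). It was 0.61 after centring on the median (adjusted p = 0.0582), and the call was also lost without sham replicate 3 (0.62, adjusted p = 0.128) and without I/R replicate 1 (0.80, adjusted p = 0.0722), 2 (0.89, adjusted p = 0.0674) or 3 (0.88, adjusted p = 0.0672).

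Within the bicarbonate transporter family, Slc4a3 had the largest share in both groups. It was 72.2%, 71.6% and 66.0% of the summed FPKM of 10 SLC4 genes in sham and 80.3%, 81.4% and 82.0% in I/R. The shares did not overlap, with means of 69.9% ± 3.41 and 81.2% ± 0.864 (SD, n = 3; two-sided exact permutation p = 0.1, 0.125 after adjustment over 5 genes). Without Slc4a1, the anion exchanger of red blood cells, the means were 75.1% and 85.1%. Slc4a2, the widely expressed exchanger AE2, had 2.56 ± 0.618 FPKM in sham and 2.72 ± 0.422 in I/R (SD, n = 3; log2 fold change 0.10, limma adjusted p = 0.79). The genes closest to Slc4a3 in profile were Kctd5, Fblim1 and Creb3l1, within 0.07 to 0.09 log2 units.

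No sodium-proton exchanger passed the test, while the carbonic anhydrases and the sodium-calcium exchangers each had 1 gene higher and 1 lower. Of 9 sodium-proton exchanger genes listed, 8 were found and 3 were tested, and limma called 0 of them, with 0 also at an unadjusted p under 0.05. Of 13 carbonic anhydrase genes, which supply the exchangers with bicarbonate and protons, 5 were tested, with Ca14 higher (5.28 ± 2.34 to 18.2 ± 5.09 FPKM, SD, n = 3; log2 fold change 1.81, limma adjusted p = 0.0047) and Ca4 lower (25.6 ± 2.88 to 11.5 ± 0.812 FPKM; log2 fold change -1.14, limma adjusted p = 0.0055). Both are membrane-bound forms. Among sodium-calcium exchangers, Slc8a1, the cardiac plasma membrane form NCX1, rose from 1.85 ± 0.152 to 4.52 ± 1.43 FPKM (SD, n = 3; log2 fold change 1.21, limma adjusted p = 0.0082), but not after rescaling without mitochondrial mRNAs (0.46, adjusted p = 0.25). Slc8b1, the mitochondrial form, fell from 2.22 ± 0.703 to 0.935 ± 0.132 FPKM (log2 fold change -1.12, limma adjusted p = 0.0158), a call lost without sham replicate 2 or sham replicate 3.

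Over the 12 gene lists 47 genes were tested, of which 21 were called higher and 2 lower, with a median log2 fold change of 0.75. The lists were also chosen with earlier results of these data known. Without the 5 genes described here, 42 were tested, 16 were called higher (25.5% of all genes were) and 2 lower, with a median of 0.59. Rescaling without mitochondrial mRNAs gave 16 higher and 6 lower of the 47, and 772 higher and 2831 lower of all 10942 genes tested. The median of all genes moved from 0.29 to -0.48 under that rescaling, and against it Hcn2 was at 2.23, Scn4b at 2.03, Atp1b1 at 1.44, Fxyd1 at 1.41 and Slc4a3 at 0.08.

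The 5 genes were then set against the cardiomyocyte markers within each sample. The mean log2(FPKM + 0.1) of the 8 markers was 9.23, 7.99 and 7.67 in sham and 10.75, 10.23 and 10.20 in I/R, a shift of 2.10. Relative to this mean, Fxyd1 was at -1.91 ± 0.15 in sham and -1.81 ± 0.09 in I/R, and Atp1b1 at -5.73 ± 0.51 and -5.62 ± 0.38 (SD, n = 3). The groups overlapped in both genes, with differences of 0.10 and 0.11 (two-sided exact permutation p = 0.4 and 0.8). Without sham replicate 1 the difference of Atp1b1 was -0.18. Scn4b differed by 0.47 (exact permutation p = 0.6), but by -0.18 without I/R replicate 1 and by -0.55 with a pseudocount of 1. Hcn2 differed by 0.83 (exact permutation p = 0.6), and by 0.0034 without I/R replicate 1. In both genes the groups overlapped. With 3 samples a group these p-values cannot show that there was no difference from the markers. Slc4a3 was lower against the markers in every I/R sample, at -4.97 ± 0.76 in sham and -6.21 ± 0.21 in I/R (SD, n = 3), a difference of -1.24 (exact permutation p = 0.1, 0.5 after Benjamini-Hochberg adjustment over 5 genes). The markers did not move alike. Their log2 fold changes ran from 0.82 for Ryr2 (limma adjusted p = 0.109), near the 0.86 of Slc4a3, to 2.76 for Myl3. With each sample centred on the markers, limma also called Slc4a3 lower (adjusted p = 0.0221), as it did 8237 of the 10942 genes.

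Markers of other cells had smaller median fold changes than those of cardiomyocytes. Of all genes tested, 25.5% were called higher and 7.36% lower. The 5 atrial markers tested had a median log2 fold change of 0.69, with Sln called higher and Nr2f2 lower. For fibroblasts 2 of 7 tested markers were called higher, with a median log2 fold change of 0.57 and a summed FPKM of 440 to 546 in sham and 554 to 650 in I/R. For endothelial cells 0 of 7 were called by limma (1 higher and 1 lower by unadjusted p, and Kdr higher with the replicate block at adjusted p = 0.0451), with a median of -0.21, and for nerve and Schwann cells 0 of 5 (1 higher by unadjusted p), with a median of 0.31. Red blood cell markers had 0 of 5 called (1 lower by unadjusted p) and a median of -0.71, and 2 of 4 markers of neutrophils and monocytes were higher, with a median of 1.31. Of 6 skeletal muscle markers found, 2 were tested and 0 called by limma (1 lower by unadjusted p, and Tnnt3 lower with the replicate block at adjusted p = 0.0264). Their sum was at most 4.11 FPKM, and Myh4 was at 0 in the 6 libraries. Rescaled without mitochondrial mRNAs, 772 of the 10942 genes tested were called higher and 2831 lower. Of the 8 cardiomyocyte markers 6 were then called higher (median 1.38). Of the neutrophil and monocyte markers 1 was called higher (median 0.65). Fibroblast markers had 0 higher and 2 lower (median -0.22), and endothelial markers 0 and 4. Red blood cell markers had 0 higher and 3 lower (median -1.56), and atrial markers 0 and 1. Nerve and Schwann cell markers had 0 higher and 1 lower, and skeletal muscle markers 0 and 2.

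**Figure D4:**
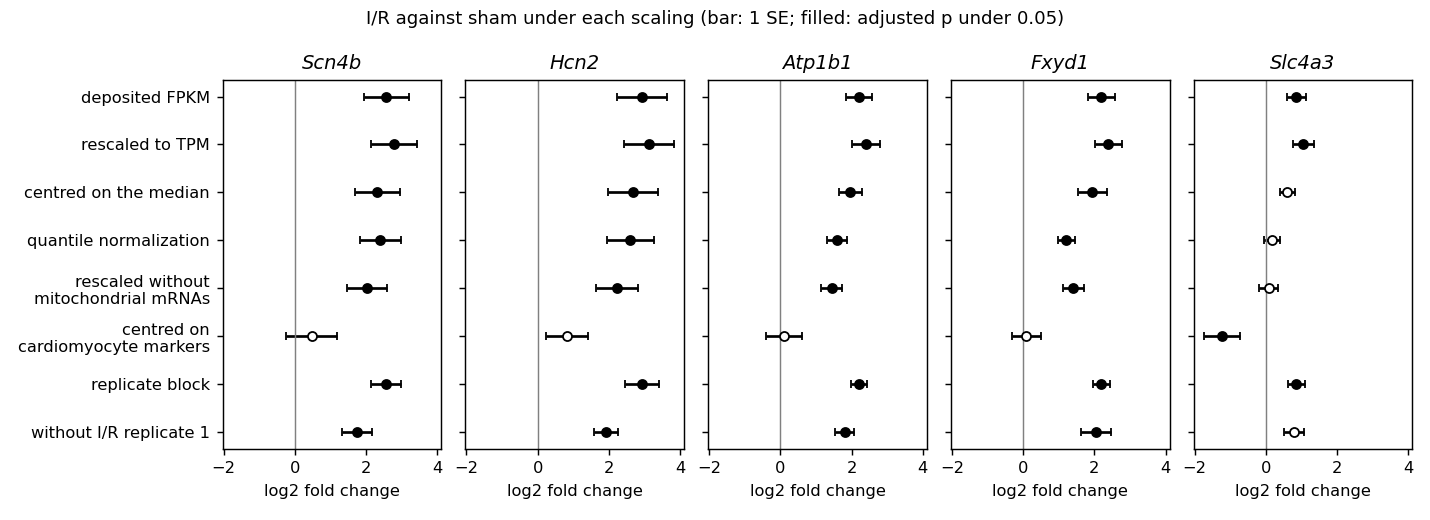
Log2 fold change of I/R against sham with 1 SE for the 5 genes under 8 treatments of the data, from the deposited FPKM to leaving out I/R replicate 1 (filled, limma adjusted p under 0.05). Scn4b, Hcn2, Atp1b1 and Fxyd1 stay filled except when centred on the cardiomyocyte markers, and Slc4a3 moves from 0.86 to 0.08 and to -1.24.

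The order of the levels differed between the groups. In sham the means ran from Fxyd1 (93.3 FPKM) through Slc4a3 (10.2), Atp1b1 (5.95) and Hcn2 (1.34) to Scn4b (0.438). The sham values of Slc4a3 and Atp1b1 overlapped across samples, though Slc4a3 was the higher within each sham sample. In I/R Atp1b1 (29.5 FPKM) stood above Slc4a3 (18.1) in each sample, with no overlap between the 3 values of each gene. Across I/R samples the values of Hcn2 (mean 17.3 FPKM) overlapped with those of Atp1b1, of Slc4a3 and of Scn4b (mean 4.21 FPKM). The 3 values of Hcn2 ran from 4.72 to 41.6 FPKM. Within each I/R sample Hcn2 stood above Scn4b.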

How the data were processed

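Myocardial RNA of 3 sham and 3 I/R samples was compared. The authors deposited 1 table of FPKM values with 30452 genes and 6 samples, and the submitters' processing notes name STAR and HTSeq. Their versions, the genome build and the annotation are not given in the sources used here. Libraries were made from total RNA with a stranded kit. The 6 columns were matched to the samples by name. Rows with the same symbol were summed to 28293 genes, and 7092 rows had no symbol.

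Log2(FPKM + 0.1) of 10942 genes, those whose mean FPKM reached 0.5, was compared with limma 3.58.1 in R 4.3.3 (intensity trend, Benjamini-Hochberg adjustment over all genes tested, threshold 0.05), and checked on simulated data first. Adjusted p-values are limma's unless an exact permutation test is named. Single values were compared with two-sided exact permutation tests (scipy 1.17.1), which give at least p = 0.1. Whole reads were found per gene as the smallest numbers that give its 6 values to within 0.001 read. The true counts may be multiples of these. Relative depth, with sham replicate 1 as 1, ran from 0.873 to 1.18. The total depth is unknown.

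Same-numbered samples deviated together, with correlations of 0.203, 0.117 and 0.118 for the numbers in the labels. Of the 6 other pairs, sham replicate 3 with I/R replicate 2 also had 0.120 and the rest were below 0, so the pairing is not clearly specific to the numbers. Each same-numbered pair was over 0.1, and blocked values are given where they changed a call. The genes and gene lists were chosen with earlier results of these data known. The genes named beside the 5 described were those of the lists that were called, the most abundant gene of each list, and the 3 nearest profiles of each gene. Some genes of these lists are not reported singly here, and a few others of them are named after their values were seen. Alternatives were other pseudocounts, filters and scalings, the replicate block, no trend, and leaving out each sample. Promoter windows and names were taken from RefSeq (GRCr8) by symbol, 4 of 5 matched.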

Additional observations from a re-analysis of the deposited data

How the results depend on the processing

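The fitted fold changes of Scn4b, Hcn2, Atp1b1 and Fxyd1 stayed above 0 under every alternative to the limma fit, though centred on the markers none passed the threshold. The difference of Atp1b1 from the markers turned to -0.18 without sham replicate 1, and that of Scn4b to -0.18 without I/R replicate 1. Without the filter on low values 2 of the 5 genes were called, since the adjusted p became 0.0563 for Scn4b (2.57), 0.0542 for Hcn2 (2.93) and 0.0540 for Slc4a3 (0.86), and 5 genes of the lists were called lower. Centring on the cardiomyocyte markers gave 0.47 for Scn4b, 0.83 for Hcn2, 0.11 for Atp1b1, 0.10 for Fxyd1 and -1.24 for Slc4a3, with 0 of the 5 genes higher and 1 lower, 37 genes higher and 8237 lower, and 0 and 26 in the lists. Slc4a3 was at 0.61 with centring on the median, 0.17 after quantile normalization and 0.0794 after rescaling without mitochondrial mRNAs. Scn4b minus the markers was -0.55 with a pseudocount of 1. Leaving out each replicate gave 1.74 to 3.08 for Scn4b, 1.81 to 2.41 for Atp1b1, 1.96 to 2.65 for Fxyd1, 0.62 to 1.05 for Slc4a3 and 1.92 to 3.48 for Hcn2, with 4 to 5 of the 5 genes called. Over all genes it gave 1528 to 2557 higher (lowest without sham replicate 3) and 309 to 881 lower (lowest without sham replicate 2), and in the lists 18 to 20 higher and 1 to 3 lower.

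Over all genes, 2790 were called higher and 805 lower. These became 1441 and 1559 after quantile normalization, 772 and 2831 after rescaling without mitochondrial mRNAs, and 2020 and 1554 after centring on the median. TPM gave 504 lower and a filter at 5 FPKM, which leaves Scn4b untested, gave 166 lower. The share of higher calls was 77.6%, and 87.3% with TPM, 56.5% centred on the median, 48.0% with quantile normalization, 21.4% without mitochondrial mRNAs, 0.447% centred on the markers and 91.9% at 5 FPKM. Genes of the lists called lower were 1 at that filter, 4 with the median, 4 with quantile normalization and 6 without mitochondrial mRNAs. With the replicate block 3085 genes rose and 895 fell, of which 3504 were also called without it, and no call of the 5 genes changed (adjusted p of 0.0014 for Scn4b and 0.0168 for Slc4a3). Where the alternative is not a smaller set of genes or samples, the cause was not tested. With 3 samples a group the exact test cannot pass the threshold.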
